A study of Mus musculus with 6 samples.

Results

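The genes examined here encode 10 enzymes that turn cholesterol into bile acids and conjugate them: Cyp7a1, Cyp8b1, Cyp27a1, Cyp7b1, Hsd3b7, Akr1d1, Amacr, Acox2, Slc27a5 and Baat. They were found by gene symbol among the 45777 genes of the expression table, each symbol matched a single gene, and all 10 were among the 18636 genes tested. The RNA came from livers of C57BL/6 mice, male, 8 weeks of age and without food for 24 h. The 3 wild-type controls (WT) were Pak4 flox/flox littermates, which carry the floxed alleles without a Cre driver. The 3 liver knockout mice (LKO) were Alb-Cre; Pak4 flox/flox, in which a transgene with the albumin promoter drives Cre in hepatocytes, so Pak4 in other liver cells was not the target. Mice with Cre and no floxed allele were not analysed here, and Cre and the loss of Pak4 therefore cannot be told apart. PAK4 is a serine/threonine kinase, and the comparison asked which liver transcripts differed in the fasted state when hepatocytes lacked it.

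Bile acids are made from cholesterol in hepatocytes by a classic and an alternative route. The classic route opens with CYP7A1, which places a hydroxyl group at the 7-alpha position and sets the rate of the route, and CYP8B1 later adds the 12-alpha hydroxyl group that makes cholic acid. The alternative route opens with the mitochondrial sterol 27-hydroxylase CYP27A1 and continues with the oxysterol 7-alpha-hydroxylase CYP7B1. HSD3B7 and AKR1D1 change the steroid ring, AMACR and ACOX2 act on the side chain in peroxisomes, and SLC27A5 and BAAT join the product to coenzyme A and then to taurine or glycine.

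A promoter was in the RefSeq promoter table (GRCm38.p6) for 5 of the 10 genes, namely Cyp27a1, Akr1d1, Hsd3b7, Cyp8b1 and Acox2. The bases before the start site of Cyp8b1 and Hsd3b7 are printed, because one of these genes was called higher in LKO mice and the other was not called, and because these windows could be kept outside the annotated genes. The windows of Cyp27a1, Akr1d1 and Acox2 lie at least in part inside the span annotated for the gene, which has an earlier start, and are not printed. Both windows start 250 bases before the annotated start, and the Cyp8b1 window, at chr9:121916306-121916555 on the minus strand, ends 1 base before it. The Hsd3b7 window, at chr7:127800359-127800603 on the plus strand, ends 6 bases before it. Capitals mark CAAAGTCCA, the letters of a common binding site of the nuclear receptor HNF4A, at -67 to -59 and TATAAA, which is bound by TBP, at -31 to -26 from the Cyp8b1 start.
Cyp8b1: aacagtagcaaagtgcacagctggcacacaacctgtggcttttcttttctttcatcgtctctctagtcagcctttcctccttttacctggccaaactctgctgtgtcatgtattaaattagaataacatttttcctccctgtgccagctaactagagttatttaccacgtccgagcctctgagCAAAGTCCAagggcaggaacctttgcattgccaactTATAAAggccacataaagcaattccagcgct
Hsd3b7: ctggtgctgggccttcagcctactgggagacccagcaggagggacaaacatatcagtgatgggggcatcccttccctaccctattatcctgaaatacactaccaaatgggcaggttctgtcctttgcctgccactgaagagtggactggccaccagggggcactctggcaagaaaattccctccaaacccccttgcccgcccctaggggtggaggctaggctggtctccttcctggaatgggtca

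The nuclear receptor motifs AGGTCA, TCAAGGTCA, TCAAGGCCA and CAAAGTCCA, the bZIP factor motifs TTATGTAA, TTACGTAA and TGACGTCA, and the core promoter motifs TATAAA (bound by TBP) and CCAAT (bound by NF-Y) were searched on both strands in the 250 bases before each start. AGGTCA lies inside TCAAGGTCA, so these overlap. CAAAGTCCA was present in 0.384% and TATAAA in 12.4% of the 32851 windows of this length in the table. Akr1d1 held AGGTCA on the opposite strand at -232 to -227 and at -210 to -205, a motif of 14.0% of windows. Positions are counted from the start site of the promoter table. CCAAT was found on the opposite strand of Cyp27a1, at -71 to -67 and at -34 to -30, and at -36 to -32 before the downstream start of Acox2, and 33.8% of windows held it. Hsd3b7 and the upstream start of Acox2 held no match. The other motifs matched no window of these genes, and they occurred in 0.387% (TCAAGGTCA), 0.511% (TCAAGGCCA), 0.819% (TTATGTAA), 0.113% (TTACGTAA) and 1.55% (TGACGTCA) of all windows. These are matches of letters only.

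Total read counts were 45934632 to 55205564 in WT and 53936281 to 59576437 in LKO mice, and each enzyme gene had at least 2418 reads in every library. Levels are counts scaled to a common library size (CPM) by TMM, which sets libraries against each other by the genes that differ least, and the TMM factors separated the genotypes, at 1.28 to 1.43 in WT and 0.639 to 0.816 in LKO mice. Of the 18636 genes, 3661 (19.6%) were called higher and 3815 (20.5%) lower in LKO mice by edgeR's quasi-likelihood test at a Benjamini-Hochberg adjusted p under 0.05. With libraries scaled by their total counts, 1169 genes (6.27%) were called higher and 9573 (51.4%) lower, and the median log2 fold change of all genes was -0.90 in place of -0.04. The targeted gene Pak4 had 268, 210 and 271 counts in WT and 85, 52 and 149 in LKO mice. Its scaled level was 3.59, 3.21 and 4.1 CPM in WT and 1.93, 1.49 and 3.22 CPM in LKO livers, so that LKO mouse 3 lay within the WT range. The log2 fold change of Pak4 was -0.71 (SE 0.31, adjusted p = 0.101 by edgeR's quasi-likelihood test), and it was -1.08 and called without LKO mouse 3. Pak4 was also called lower with total counts (-1.54), with protein-coding totals (-1.37) and with limma on log2(TPM + 1) (-1.19) and log2(TPM + 0.1) (-2.14). Many genes were called lower under these settings: 51.4% with total counts, 44.4% with protein-coding totals, and 13322 and 13535 of 18636 under the limma fits. The median log2 fold changes of all genes were -0.90, -0.72, -0.79 and -1.34 in that order. In TPM Pak4 was 2.41, 2.31 and 2.59 in WT and 0.457, 0.265 and 0.845 in LKO mice, with no overlap. Over the 20 alternatives the adjusted p-value of Pak4 ran from 6.26e-04 to 0.248.

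Of the 10 enzyme genes, 3 were called higher in LKO mice, Cyp7a1, Baat and Cyp8b1, where 19.6% of all genes were called higher. By edgeR's quasi-likelihood test 0 were called lower, where 20.5% of all genes were, and 0 were lower at an unadjusted p under 0.05 with this test, with edgeR's exact test and with DESeq2. The same 3 genes were those whose WT and LKO values did not overlap, against 54.0% of all genes. The median log2 fold change of the 10 genes was 0.09, beside -0.04 for all genes tested. With total counts as the scale, 1 of the 10 was called higher, where 6.27% of all genes were, and 6 lower (Cyp27a1, Cyp7b1, Hsd3b7, Amacr, Acox2 and Slc27a5), where 51.4% were. Scaled to the total of protein-coding genes, 2 were called higher beside 7.74% of all genes and 5 lower beside 44.4%, with a median over all genes of -0.72. Cyp7a1 was the member called higher under each of these scalings, and the plot of scaled levels by mouse shows its separation.

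**Figure D1:**
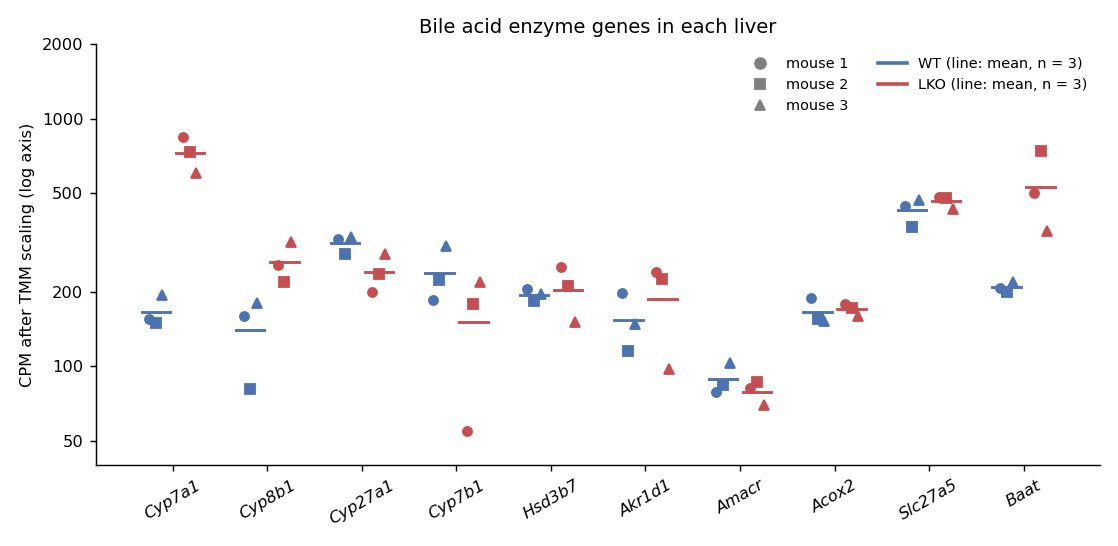
Level of each enzyme gene in each of the 6 livers, in CPM after TMM scaling on a log axis, with circles, squares and triangles for mice 1, 2 and 3 of a genotype (the numbers do not pair the mice) and a line at the mean (n = 3). The LKO points of Cyp7a1, Cyp8b1 and Baat lie above every WT point, and for the other 7 genes the genotypes overlap.

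Cyp7a1, on chromosome 4 at 6265612 to 6275632 with 6 exons, was higher in every LKO mouse. Its level was 156, 149 and 194 CPM in WT mice and 839.5, 734 and 600.4 CPM in LKO livers. The lowest LKO liver lay far above the highest WT liver, and the means were 166 ± 24.5 and 725 ± 119.8 CPM (SD, n = 3). This was a 4.36-fold rise, a log2 fold change of 2.12 (SE 0.20, 95% interval 1.65 to 2.59, adjusted p = 3.15e-04 by edgeR's quasi-likelihood test). The rise did not need TMM scaling, since the raw counts were 11609, 9752 and 12856 in WT and 36952, 25597 and 27764 in LKO mice. The gene was called higher under each of the 20 alternative settings tried, with log2 fold changes of 0.57 to 2.28 and adjusted p-values of 5.92e-22 to 0.0236. The lowest fold changes came from limma on TPM.

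Cyp8b1, on chromosome 9 at 121914356 to 121916305, has a single exon, and its promoter is the first of the sequences printed above. Its level was 160.2, 81.2 and 180.3 CPM in WT and 256, 219 and 318 CPM in LKO livers. WT mouse 2 was low among the WT livers, and the lowest LKO value was above the highest WT value. The rise was 1.88-fold, a log2 fold change of 0.91 (SE 0.30, 95% interval 0.24 to 1.59, adjusted p = 0.0381 by edgeR's quasi-likelihood test). It was the weakest of the 3 calls: it was made under 11 of the 20 alternatives, with adjusted p-values from 0.00682 to 0.835, and was lost when any one mouse other than WT mouse 3 was left out, down to a log2 fold change of 0.62 without WT mouse 2. With total counts as the scale the log2 fold change was 0.08, which was 0.98 above the median of all genes on that scale, and its sign turned with limma on TPM, at -0.56 with log2(TPM + 1) and -0.57 with log2(TPM + 0.1).

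The enzymes of the alternative route were not called. Cyp27a1, on chromosome 1 at 74713148 to 74737897 with 9 exons, had 328, 284 and 334 CPM in WT and 199, 236 and 285 CPM in LKO livers. LKO mouse 3 reached just into the WT range, and the other LKO livers lay below it. The log2 fold change was -0.39 (95% interval -0.81 to 0.03, adjusted p = 0.122 by edgeR's quasi-likelihood test). This gene passed the threshold at -0.53 without LKO mouse 3 and at -1.25 with total counts as the scale, where it was 0.35 below the median of all genes. Over the 20 alternatives its adjusted p-value ran from 1.10e-04 to 0.303.

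Cyp7b1, on chromosome 3 at 18071944 to 18243890 with 6 exons, had 186, 223 and 307 CPM in WT and 54.9, 178 and 219 CPM in LKO livers. LKO mouse 1 stood far below the other livers, while LKO mouse 3 was close to WT mouse 2. The log2 fold change was -0.66 with a 95% interval of -1.67 to 0.35 (adjusted p = 0.267 by edgeR's quasi-likelihood test), and it was -0.27 without LKO mouse 1. The spread among LKO mice was thus too wide to tell a fall of more than 3-fold from a small rise. The annotated small nuclear RNA Gm23686 lies within Cyp7b1 and had 11 to 299 counts per mouse, under the 2418 to 20274 counts of Cyp7b1.

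The genes for the ring changes overlapped between genotypes. Hsd3b7, the 3-beta-hydroxysteroid dehydrogenase of bile acid synthesis on chromosome 7 at 127800609 to 127803802 with 7 exons, had 204, 184 and 196 CPM in WT and 251, 210.2 and 151 CPM in LKO livers. The WT livers were close together and the LKO livers lay on both sides of them, with a log2 fold change of 0.07 (95% interval -0.39 to 0.53, adjusted p = 0.808 by edgeR's quasi-likelihood test). Akr1d1, the steroid 5-beta-reductase on chromosome 6 at 37529978 to 37574921 with 9 exons, had 198, 115 and 148 CPM in WT and 240.3, 226 and 97.3 CPM in LKO livers. LKO mouse 3 had the lowest and the other LKO livers the highest of the 6 values, and the log2 fold change was 0.29 (95% interval -0.49 to 1.07, adjusted p = 0.532 by edgeR's quasi-likelihood test). GENCODE M21 places Gm49388 on the same strand as Hsd3b7 and 9430064I24Rik on the opposite strand of the same interval. The lncRNA Gm33429, which overlaps the start of Akr1d1, had 0 to 12 counts per mouse. Whether the counting used strand is not stated.

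The side-chain genes were not called. Amacr, the racemase that turns the side chain to the form that peroxisomal oxidation accepts, lies on chromosome 15 at 10981756 to 10996624 with 5 exons. It had 79.0, 84.4 and 103 CPM in WT and 81.8, 86.3 and 69.5 CPM in LKO livers, with overlapping groups and a log2 fold change of -0.17 (95% interval -0.54 to 0.20). Acox2, the branched-chain acyl-CoA oxidase on chromosome 14 at 8225511 to 8259019 with 15 exons, had 189, 155 and 153 CPM in WT and 179, 173 and 159 CPM in LKO livers. All LKO values lay inside the WT range, and the log2 fold change was 0.04 (95% interval -0.31 to 0.39). The adjusted p-values by edgeR's quasi-likelihood test were 0.444 for Amacr and 0.856 for Acox2. With total counts both were called lower, at -1.03 and -0.82, which were 0.13 below and 0.08 above the median of all genes on that scale.

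The conjugation genes differed from each other. Baat, which joins bile acids to taurine or glycine, lies on chromosome 4 at 49489416 to 49507915 with 3 or 4 exons and had 207, 199 and 219.7 CPM in WT and 500.5, 742 and 353 CPM in LKO livers. The WT livers lay within a narrow range, the LKO livers were spread, and the lowest of them was above all WT livers. Means were 208 ± 10.4 in WT and 532 ± 196 CPM in LKO livers (SD, n = 3), a 2.55-fold rise with a log2 fold change of 1.35 (SE 0.26, 95% interval 0.75 to 1.96, adjusted p = 0.00463 by edgeR's quasi-likelihood test). It was called under 17 of the 20 alternatives, with adjusted p-values from 3.34e-06 to 0.207. The call was lost with total counts as the scale, at 0.45, and with limma on TPM, at -0.26. On the total-count scale Baat stood 1.35 above the median of all genes. The overlapping lncRNA Gm32894 had 48 to 93 counts per mouse, against at least 13030 for Baat.

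Slc27a5, the bile acyl-CoA synthetase that acts just before BAAT, lies on chromosome 7 at 12988346 to 12998192 with 10 exons. Its level was 446, 366 and 470.4 CPM in WT and 485, 478 and 431 CPM in LKO livers. The groups overlapped, and the log2 fold change was 0.12 (95% interval -0.27 to 0.51, adjusted p = 0.607 by edgeR's quasi-likelihood test).

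**Figure D2:**
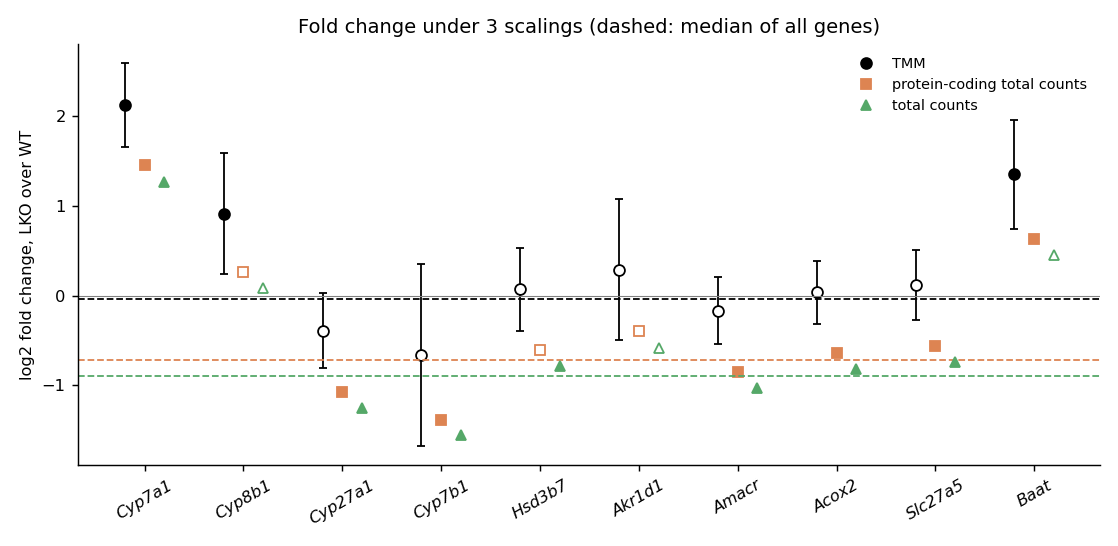
Log2 fold change of LKO over WT for each enzyme gene with TMM (black, bars: 95% interval), with the total of protein-coding genes (orange) and with total counts (green), filled where called at an adjusted p under 0.05, with a dashed line at the median of all genes for each scaling. All 10 genes move down together with the median from TMM to total counts, by about as much as the line, and Cyp7a1 is filled under all 3 scalings.

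Ratios between genes in the same liver do not depend on the scaling of the library. Across the 3 comparisons with Cyp7a1, every LKO liver lay below every WT liver. These 3 ratios share Cyp7a1, which was itself higher in every LKO liver, so they are not independent results. The log2 ratio of Cyp7b1 to Cyp7a1 counts was 0.26, 0.58 and 0.66 in WT and -3.93, -2.05 and -1.46 in LKO mice, a mean difference of -2.98 (7.87-fold lower), which was -2.25 without LKO mouse 1 and -3.49 without LKO mouse 3. That of Cyp27a1 to Cyp7a1 was 1.07, 0.93 and 0.78 in WT and -2.08, -1.64 and -1.07 in LKO mice, a difference of -2.52 (5.75-fold lower). Per length, in TPM, Cyp7b1 was 2.29 to 3.02 times Cyp7a1 in WT and 0.125 to 0.697 times in LKO mice, and Cyp27a1 was 3.66 to 4.49 times and 0.503 to 1.01 times. Cyp8b1 to Cyp7a1 was 0.04, -0.88 and -0.11 in WT and -1.71, -1.74 and -0.91 in LKO mice, a difference of -1.14, with WT mouse 2 and LKO mouse 3 nearly meeting. For each of these 3 ratios the two-sided exact permutation test over mice gave p = 0.1, the smallest it can give with 3 against 3 mice (Benjamini-Hochberg adjusted p = 0.175 over 7 ratios).

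Of the other 4 ratios, only Baat to Slc27a5 separated the genotypes. It was -1.11, -0.88 and -1.10 in WT and 0.05, 0.63 and -0.29 in LKO mice. All LKO livers were higher, with a difference of 1.16 (2.23-fold, exact permutation p = 0.1, adjusted p = 0.175). The groups overlapped for Cyp7b1 to Cyp27a1 (difference -0.45, exact permutation p = 0.5), Hsd3b7 to Akr1d1 (-0.18, exact permutation p = 0.6) and Acox2 to Amacr (0.21, exact permutation p = 0.5). The difference of Cyp7b1 to Cyp27a1 was 0.03 without LKO mouse 1, so its sign rested on that liver.

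**Figure D3:**
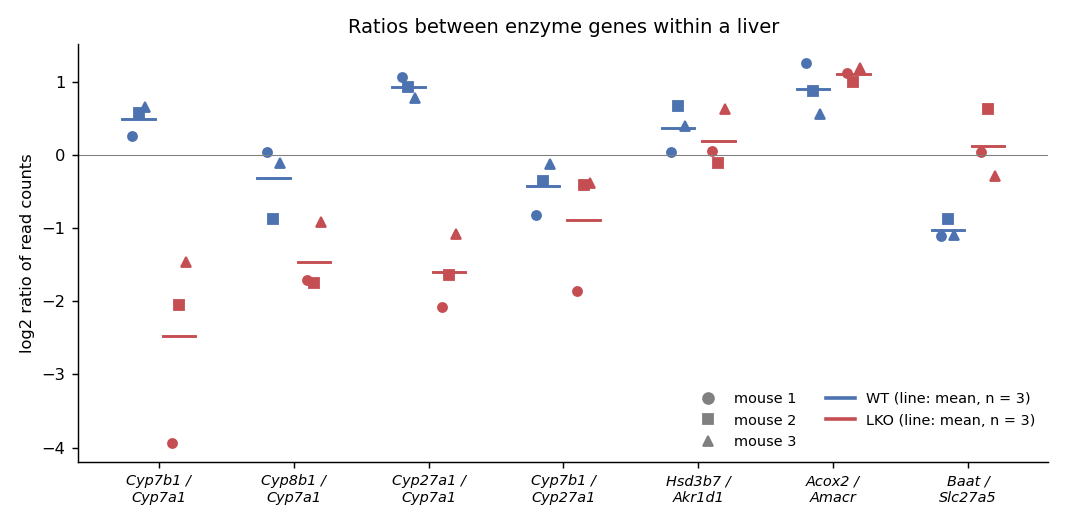
Log2 ratio of the read counts of pairs of enzyme genes in each liver, with circles, squares and triangles for mice 1, 2 and 3 of a genotype and a line at the mean (n = 3). The LKO points of the 3 ratios to Cyp7a1 lie below all WT points, those of Baat to Slc27a5 lie above, and the other 3 ratios overlap.

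Levels of different genes were compared in TPM, which corrects for transcript length. In WT livers Slc27a5 had the highest mean, 359 ± 25.3 TPM, followed by Cyp27a1 (316 ± 11.3), Cyp7b1 (214 ± 46.5), Hsd3b7 (210.4 ± 10.6), Baat (207 ± 3.32), Cyp8b1 (139.7 ± 45.5), Acox2 (126 ± 17.1), Akr1d1 (116 ± 27.6), Amacr (82.7 ± 10.8) and Cyp7a1 (78.0 ± 7.05 TPM; SD, n = 3). Neighbours in this order had overlapping values, except Slc27a5 and Cyp27a1, Cyp27a1 and Cyp7b1, Baat and Cyp8b1, and Akr1d1 and Amacr. In LKO livers the order was Baat (175 ± 35.7), Slc27a5 (135 ± 20.6), Cyp7a1 (118 ± 26.4), Cyp8b1 (94.0 ± 31.5), Cyp27a1 (83.4 ± 24.1), Hsd3b7 (75.9 ± 21.8), Akr1d1 (46.8 ± 18.4), Cyp7b1 (46.6 ± 29.0), Acox2 (44.8 ± 7.28) and Amacr (25.6 ± 3.51 TPM; SD, n = 3). Among LKO neighbours only Acox2 and Amacr did not overlap. The mean TPM was lower in LKO than in WT mice for every enzyme gene but Cyp7a1. The median log2 fold change of all genes was -0.79 on log2(TPM + 1) and -1.34 on log2(TPM + 0.1).

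Within each liver Cyp7a1 moved from the last of the 10 ranks by TPM, held by all 3 WT mice, to rank 3, 3 and 5 in LKO mice. Its share of the summed TPM of the 10 genes was 3.86% to 4.49% in WT and 12.7% to 16.0% in LKO mice. The share of Baat was 10.7% to 12.2% in WT and 15.8% to 27.2% in LKO mice. Cyp27a1 held 16.4% to 17.6% in WT and 8.06% to 12.8% in LKO mice, with no overlap, and Cyp7b1 held 8.83% to 13.5% and 2.00% to 8.86%, where LKO mouse 3 met WT mouse 1. Slc27a5 had 19.0% to 19.8% in WT and 14.9% to 16.6% in LKO mice. These shares add to a fixed sum, so a rise in one gene lowers the others, and they are given without a test.

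**Figure D4:**
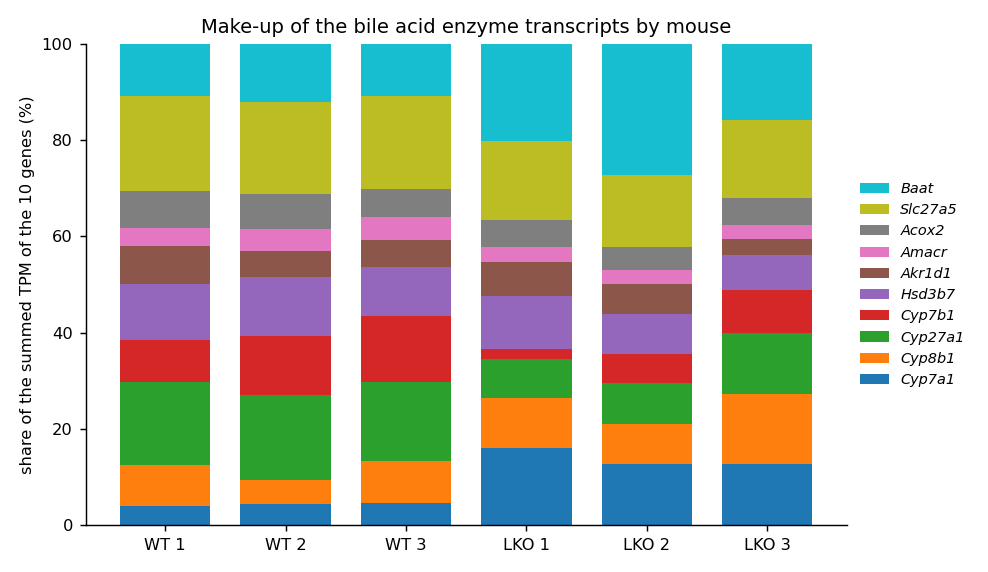
Share of each enzyme gene in the summed TPM of the 10 genes, in percent, as a stacked bar for each of the 3 WT and 3 LKO livers. The Cyp7a1 segment at the bottom grows from 3.86% to 4.49% in WT to 12.7% to 16.0% in LKO livers, and the Cyp27a1 segment shrinks from 16.4% to 17.6% to 8.06% to 12.8%.

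The rest of the pathway was read from 3 lists of 34 genes in all, of which 8 were called higher, 6 lower and 20 were not called, with a median log2 fold change of -0.19 beside -0.04 for all genes, of which 19.6% were called higher and 20.5% lower. With total counts as the scale, 2 of the 34, Cyp39a1 and Cyb5a, were called higher, beside 6.27% of all genes, and 21 lower, beside 51.4%. Of 13 other enzymes, 3 were called higher and 1 lower, against 19.6% and 20.5% of all genes. Cyp2c70, the mouse enzyme that makes muricholic acids, had 584, 518 and 438 CPM in WT and 32.8, 109 and 105 CPM in LKO livers. Every LKO liver was far below every WT liver, with a 6.24-fold fall and a log2 fold change of -2.64 (SE 0.42, adjusted p = 0.00184 by edgeR's quasi-likelihood test). Cyp39a1, the 7-alpha-hydroxylase of 24-hydroxycholesterol, had 18.3, 20.7 and 14.7 CPM in WT and 47.3, 45.2 and 119 CPM in LKO livers. It rose by a log2 fold change of 1.98 (adjusted p = 0.00393 by edgeR's quasi-likelihood test), or 1.37 without LKO mouse 3, the highest liver. Slc27a2, a very long-chain acyl-CoA synthetase that also activates bile acid precursors, rose from 583 ± 95.4 to 1473 ± 101 CPM (SD, n = 3; log2 fold change 1.34, adjusted p = 0.00152 by edgeR's quasi-likelihood test). Acnat2, an acyl-CoA to amino acid transferase related to BAAT, rose from 29.6 ± 12.3 to 66.5 ± 6.56 CPM (log2 fold change 1.17, adjusted p = 0.0149 by edgeR's quasi-likelihood test). The Acnat2 call was lost without LKO mouse 2, with total counts (0.28) and with protein-coding totals (0.46), and its sign turned with limma on TPM. The 9 enzymes not called had log2 fold changes of -1.59 to 0.22.

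Among 7 genes for cholesterol delivery and electron supply, 3 were called higher and 3 lower, against 19.6% and 20.5% of all genes. Stard4, a cytosolic sterol carrier, had 53.5, 89.6 and 90.2 CPM in WT and 16.4, 13.6 and 8.56 CPM in LKO livers. All LKO livers lay far below the WT livers, and the log2 fold change was -2.60 (adjusted p = 4.80e-04 by edgeR's quasi-likelihood test). Its relative Stard5 rose by 0.75 on the log2 scale (adjusted p = 0.0115 by edgeR's quasi-likelihood test), but its sign turned with total counts, at -0.12. Por, the reductase that passes electrons to microsomal P450 enzymes such as CYP7A1 and CYP8B1, had 73.2, 63.4 and 101 CPM in WT and 134, 211 and 359.6 CPM in LKO livers. Cyb5a, cytochrome b5, had 497, 414 and 500.1 CPM in WT and 1436, 1912 and 1172 CPM in LKO livers. Neither gene overlapped between genotypes, and the log2 fold changes were 1.57 for Por and 1.68 for Cyb5a (adjusted p = 0.00823 and 0.00107 by edgeR's quasi-likelihood test). Fdxr, the mitochondrial reductase that supplies CYP27A1 through ferredoxin, fell from 12.2 ± 1.44 to 5.99 ± 1.64 CPM (log2 fold change -1.02, adjusted p = 0.00903 by edgeR's quasi-likelihood test), while the ferredoxin gene Fdx1 was not called (0.41, adjusted p = 0.111 by edgeR's quasi-likelihood test). The third gene called lower was Star, whose mean was 1.09 CPM in WT and 0.441 CPM in LKO livers. Fdx1 and Star were named after their values were seen.

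Of 14 regulators, 2 were called higher and 2 lower, against 19.6% and 20.5% of all genes. Nr1h4, which encodes the bile acid receptor FXR, had 89.4, 108 and 114 CPM in WT and 263, 284 and 148 CPM in LKO livers. The LKO livers were all higher, with a log2 fold change of 1.16 (SE 0.25, adjusted p = 0.00768 by edgeR's quasi-likelihood test). Ppargc1a, a coactivator induced by fasting, had 8.62, 9.40 and 6.79 CPM in WT and 18.9, 18.0 and 109.8 CPM in LKO livers. LKO mouse 3 stood far above the rest, and the log2 fold change of 2.56 (adjusted p = 0.0166 by edgeR's quasi-likelihood test) was 1.16 without it. The Ppargc1a call was kept without LKO mouse 3 but was lost on leaving out any one WT mouse. Fgfr4, the receptor for the gut hormone FGF15, fell from 4.99 ± 0.744 to 2.43 ± 0.619 CPM (log2 fold change -1.03, adjusted p = 0.0123 by edgeR's quasi-likelihood test), a call lost without WT mouse 2. Mafg, a repressor of bile acid enzyme genes, had a log2 fold change of -0.57 (adjusted p = 0.0288 by edgeR's quasi-likelihood test), a call lost without WT mouse 2, WT mouse 3 or LKO mouse 2, with the replicate block (-0.58), with upper-quartile scaling (-0.49) and with the length correction, alone (-0.38) or with the block (-0.39).

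The other 10 regulators had log2 fold changes of -1.52 to 0.45 and were not called. After their values were seen, 3 of them were picked out because they bear on the first enzymes of the pathway. Nr0b2, which encodes the repressor SHP, had 5.41, 4.43 and 7.68 CPM in WT and 3.59, 3.64 and 4.48 CPM in LKO livers. The groups met at WT mouse 2 and LKO mouse 3, and the log2 fold change was -0.58 (adjusted p = 0.0945 by edgeR's quasi-likelihood test). Hnf4a had 326, 256 and 331 CPM in WT and 162, 224 and 353 CPM in LKO livers, so that LKO livers lay on both sides of the WT livers (log2 fold change -0.30, 95% interval -0.94 to 0.33). Nr5a2, which encodes LRH-1, overlapped, at 25.4 to 45.2 CPM in WT and 32.6 to 45.5 CPM in LKO livers.

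**Figure D5:**
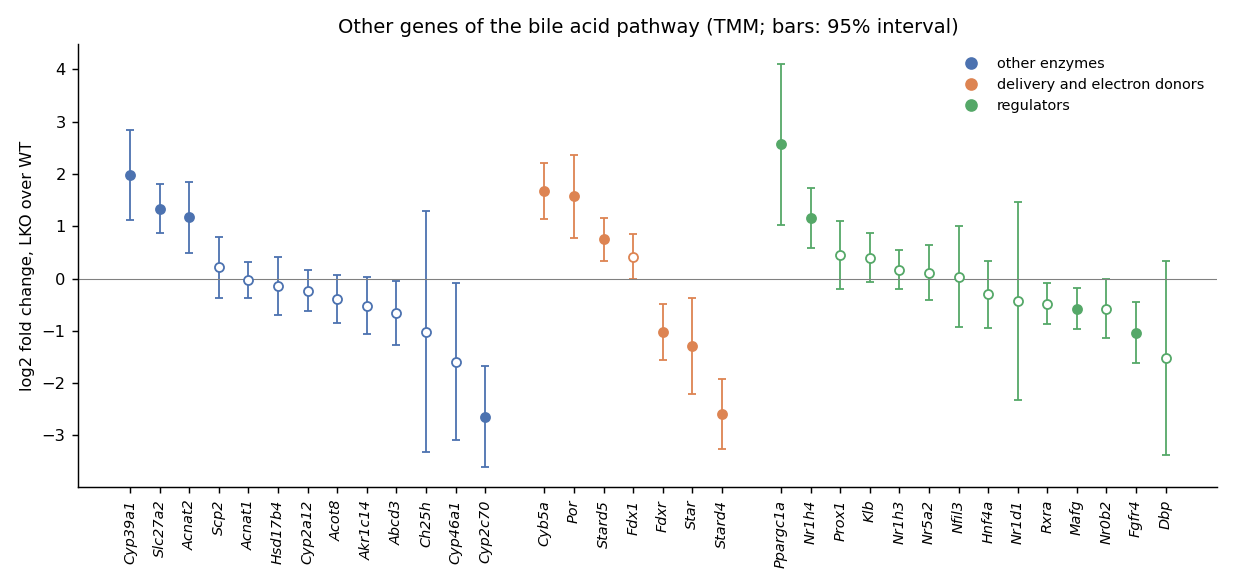
Log2 fold change of LKO over WT under TMM for 34 other genes of the pathway, in 3 colours for other enzymes, cholesterol delivery and electron donors, and regulators, with bars for the 95% interval and filled points for genes called at an adjusted p under 0.05. Cyp2c70 and Stard4 lie lowest among the called genes, at -2.64 and -2.60, and Ppargc1a lies highest at 2.56 with a wide bar.

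Whole liver was sequenced, and in such bulk samples fewer cells of a type and less RNA per cell cannot be told apart. Markers of hepatocytes, the cells that make bile acids, summed to 31475 to 36251 CPM in WT and 85322 to 104425 CPM in LKO livers, or 42811 to 48961 and 54469 to 85218 CPM on the total-count scale. Albumin (Alb) made up most of this sum, at 19641 to 23812 CPM in WT and 60635 to 83840 CPM in LKO livers after TMM scaling. Of the 7 markers, 3 were called higher (Alb, Apoa1 and Cps1) and Ttr was called lower, and Serpina1c had 3890 to 4354 CPM in WT and 2146 to 3162 CPM in LKO livers. Over all genes 19.6% were called higher and 20.5% lower, shares that also stand beside the counts of called markers below. Pericentral hepatocyte markers, from the zone where Cyp7a1 is known to be expressed, summed to 2354 to 2866 CPM in WT and 4392 to 5283 CPM in LKO livers, with 1 of 5 called higher and 1 lower. These markers did not move together. Raw counts of Oat were 13793 to 28968 in WT and 55561 to 61382 in LKO livers. Those of Cyp1a2 were 2600 to 5293 in WT and 687 to 1111 in LKO livers, and those of Glul, Cyp2e1 and Axin2 overlapped. After TMM scaling 4 of the 5 did not overlap, against 54.0% of all genes. Periportal markers summed to 798 to 1047 and 818 to 1029 CPM, with 2 of 5 higher and 1 lower. On the total-count scale the pericentral sums overlapped, at 3353 to 3871 CPM in WT and 3373 to 3634 CPM in LKO livers, and the periportal sums did not, at 1078 to 1342 and 522 to 798 CPM.

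Marker sums of other liver cells also differed. They were 263 to 403 CPM in WT and 424 to 822 CPM in LKO livers for Kupffer cells (2 of 5 genes called higher), 211 to 252 and 362 to 389 CPM for sinusoidal endothelial cells (3 of 5 higher), and 209 to 246 and 539 to 803 CPM for stellate cells (2 of 5 higher). After TMM scaling 0 markers of these lists were called lower, against 20.5% of all genes. The median log2 fold changes were 0.86 for Kupffer, 0.69 for endothelial and 0.70 for stellate markers. Genotypes did not overlap for 3, 3 and 4 of the 5 markers in the same order, against 54.0% of all genes. In raw counts, which leave out the TMM factors, the markers of each list went both ways. Dcn carried the stellate rise, at 6955 to 8993 counts in WT and 16620 to 23672 in LKO livers. The raw counts of Reln and Col1a1 were lower in every LKO liver, and those of Lrat and Des overlapped. Of the Kupffer markers, Vsig4 was higher in raw counts in every LKO liver, Adgre1 and Csf1r were lower, and Clec4f and Cd5l overlapped. Of the endothelial markers, Lyve1 and Clec4g were higher in raw counts, Stab2 and Kdr were lower, and Pecam1 overlapped. Red blood cell markers summed to 151 to 241 CPM in WT and 641 to 1181 CPM in LKO livers, with 1 of 3 called higher and 1 lower. Hbb-bs carried this rise, with 5022 to 10970 counts in WT and 24802 to 47853 in LKO livers. Alas2 went the other way, with 3487 to 4335 counts in WT and 657 to 1066 in LKO livers, and Hba-a1 counts overlapped. On the total-count scale the Kupffer and sinusoidal endothelial sums overlapped between genotypes, and the stellate and red blood cell sums did not. The cholangiocyte sum was 32.9 to 50.2 CPM in WT and 13.7 to 30.2 CPM in LKO livers, and Spp1, the 1 gene of the 4 tested that was called lower, carried it with 2019 to 3588 counts in WT and 540 to 924 in LKO livers. The median log2 fold change of the 4 tested cholangiocyte markers was 0.08, and Krt19 had 13 to 15 counts in WT and 11 to 24 in LKO livers. Lymphocyte sums were 42.3 to 63.1 and 27.3 to 42.6 CPM (1 of 4 called lower). Ptprc carried nearly all of this sum, with 2721 to 3988 counts in WT and 1187 to 1719 in LKO livers. Cd3e, Cd79a and Nkg7 each had at most 91 counts per mouse. On the total-count scale the genotypes did not overlap for cholangiocytes, at 42.2 to 67.8 and 10.6 to 19.3 CPM, or for lymphocytes, at 54.3 to 89.9 and 22.2 to 29.3 CPM. Of 4 pancreatic markers, Cpa1 and Pnlip were at 0 in all libraries, Prss2 had 2 counts in WT mouse 2 and 0 elsewhere, and Cela1 had 394 to 560 counts in WT and 188 to 243 in LKO livers. Cela1 was the 1 pancreatic marker tested. After TMM scaling its genotypes overlapped, and it was not called (log2 fold change -0.36). The part of these shifts in the differences of Cyp7a1, Cyp8b1 and Baat was not tested.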

How the data were processed

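Liver RNA of 3 WT and 3 LKO mice was sequenced by the authors, 1 library for each mouse, and the genotype labels gave the groups. These labels name a stranded mRNA kit, while the methods of the study describe total RNA after removal of ribosomal RNA, so which transcripts were selected is uncertain. Per the labels, reads on mm10 were processed with bcl2fastq 2.20.0, FastQC 0.11.7, HISAT2 2.1.0, Bowtie2 2.3.4.1 and StringTie 2.1.3b. The use of strand is not given in the sources used here. The authors deposited 1 table with read counts, FPKM and TPM in each mouse. Deposited counts are whole and not normalized. Deposited FPKM are divided by transcript length and library size. The deposited TPM correct for length and add to the same sum in each mouse, so they do not keep depth.

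A gene was tested if at most 1 of the 6 mice had a count of 0, the filter of the study, and 18636 of 45777 genes passed. Counts were compared after TMM scaling with edgeR 4.0.16 (R 4.3.3) by its quasi-likelihood test, two-sided, with genotype as the only term and Benjamini-Hochberg adjustment over all genes. The study adds 1 to counts and transforms them to log2 before its exact test, which was not repeated because edgeR takes counts, and the exact test was run as an alternative. In data simulated for the comparison of LKO and WT on 18431 genes, 199 of 200 genes changed by 2 on the log2 scale were recovered, and 7 unchanged genes were called. The changed genes had a mean of at least 1 CPM, with as many up as down, and all genes shared the same spread between mice. The simulation therefore did not check the scaling where many genes differ, as here, or a spread that differs between genes. The common biological coefficient of variation was 0.254. Ratios of the counts of 2 genes were compared by a two-sided exact permutation test over mice, with Benjamini-Hochberg adjustment over 7 ratios.

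The enzyme genes and the pathway and marker lists were chosen with earlier results of these data known. All 10 enzyme genes and Pak4 are named, and in each wider list up to 3 called genes with the largest rise and up to 3 with the largest fall, at a mean of at least 1 CPM. Alternatives were edgeR's exact test, DESeq2 1.42.0 and its size factors, upper-quartile, total-count and protein-coding scaling, other filters on low counts, limma 3.58.1 on log2(TPM + 1) and log2(TPM + 0.1), a replicate block, a gene length correction with and without that block, and leaving out each mouse. Coordinates and promoters are from RefSeq GRCm38.p6, matched by gene number and symbol, and exon numbers are those of principal transcripts in GENCODE M21. FPKM were read but entered no test. Intervals are 95% intervals of the model.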

Additional observations from a re-analysis of the deposited data

How the results depend on the processing

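Cyp7a1 was called higher under all 20 alternatives, and other calls changed with the scale of the libraries. With limma on log2(TPM + 1) and log2(TPM + 0.1) the log2 fold changes turned negative for Cyp8b1 (-0.56 and -0.57), Hsd3b7 (-1.49 and -1.51), Akr1d1 (-1.34 and -1.35), Acox2 (-1.48 and -1.50), Slc27a5 (-1.41 and -1.42), Baat (-0.26 and -0.26), Slc27a2 (-0.20 and -0.20), Acnat2 (-0.31 and -0.31), Por (-0.063 and -0.066), Stard5 (-0.76 and -0.79) and Nr1h4 (-0.44 and -0.44). With total counts they turned negative for Hsd3b7 (-0.79), Akr1d1 (-0.58), Acox2 (-0.82), Slc27a5 (-0.74) and Stard5 (-0.12), and with protein-coding totals for Hsd3b7 (-0.61), Akr1d1 (-0.39), Acox2 (-0.64) and Slc27a5 (-0.56). The median of all genes moved to -0.90 with total counts, -0.72 with protein-coding totals, -0.79 with log2(TPM + 1) and -1.34 with log2(TPM + 0.1). The enzyme genes called higher numbered 1 with total counts and 1 under each limma fit, in place of 3. Those called lower numbered 6 with total counts, 5 with protein-coding totals and 7 under each limma fit. In the 3 wider lists the counts of higher and lower genes were 2 and 21 with total counts, 5 and 18 with protein-coding totals, and 0 and 25 under each limma fit, where 0 were also higher at an unadjusted p under 0.05. Over all genes these counts were 1169 and 9573 with total counts, 1443 and 8280 with protein-coding totals, 453 and 13322 with log2(TPM + 1), and 467 and 13535 with log2(TPM + 0.1).

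Leaving out each mouse in turn gave log2 fold changes of -0.11 to 0.24 for Hsd3b7, -0.030 to 0.15 for Acox2 and -0.0025 to 0.19 for Slc27a5, and -0.70 to 0.034 for the ratio of Cyp7b1 to Cyp27a1. The enzyme genes called lower then numbered 0 to 1, the 1 being Cyp27a1 without LKO mouse 3, and those called higher 2 to 3. With the replicate number as a block, the log2 fold change was 2.12 for Cyp7a1, 0.98 for Cyp8b1 and 1.29 for Baat, all called, 3129 genes were called higher and 3302 lower, and Mafg was no longer called (-0.58, as under upper-quartile scaling at -0.49 and with the length correction at -0.38). The deviations of same-numbered mice from their group means had correlations of 0.0002, -0.039 and -0.056. No mouse correlated best with its own number, and the numbers are not taken as pairs. The enzyme genes had at least 2418 counts in every library, while Pak4 had 52 to 149 counts in LKO mice, where counting error adds to the spread between mice.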
